A study of Arabidopsis thaliana with 7 samples.

Results

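A set of 21 probe sets kept their signal in Arabidopsis flowers labelled arf6/arf6 ARF8/arf8 and fell to 0.5 or less of the wild-type signal in arf6 arf8 double-mutant flowers. They were chosen by their values from 22746 probe sets other than Affymetrix controls. Intensities below 65 were set to 65, a floor for dim signal, before ratios were taken. A member read at least 250 on all 3 arrays of the wild-type strain Columbia. In the untreated and in the IAA arrays alike, its ratio of arf6 arf8 over Columbia was at most 0.5 and its ratio of arf6/arf6 ARF8/arf8 over Columbia was at least 0.75. A few genes and gene families were set aside by name, and this left out 1 probe set that met these limits. Of the 21 members, 12 carry 1 gene in the platform annotation, 1 carries several genes and 8 have no gene listed here and are counted without a name.

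Flowers of stages 1 to 14 from plants of 6 weeks were measured on 7 single-colour Affymetrix arrays, 1 array for each group, so values are given per array without an error. The groups were arf6 arf8 flowers treated with IAA, indole-3-acetic acid, the main natural auxin, or untreated, arf6/arf6 ARF8/arf8 flowers sprayed with IAA or untreated, and Columbia flowers sprayed with IAA, sprayed with a mock solution or untreated. Both sprays contained methanol at 1% and Tween-20 at 0.05%, and tissue was taken after 30 minutes. The dose of IAA is 10 µM by the sample labels but 10 mM by the text of the series. The labels place the remaining wild-type copy at ARF8 while the series text places it at ARF6, so which gene kept a copy cannot be told from these sources. Median intensity lay between 241 and 261.5 on the 7 arrays, and the 10th percentile was 26.9 on the Columbia mock array against 9.4 to 17.9 on the others.

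ARF6 and ARF8 encode related auxin response factors, proteins that bind DNA and activate genes when auxin removes their Aux/IAA repressors. In Arabidopsis flowers both are known to promote the last steps of maturation: filament and petal growth, anther opening, gynoecium maturation and jasmonate production. Double mutants stop as closed buds, whereas plants that keep 1 functional copy of the pair are known to be less affected. The question here is which transcripts were held in flowers with 1 copy and lost without any.

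Of 10440 probe sets at or above 250 on all Columbia arrays, 234 were at most 0.5 of Columbia in arf6 arf8 in both pairs (2.24%), and 86.1% were at least 0.75 of Columbia in arf6/arf6 ARF8/arf8 in both pairs. After the exclusions by name, 228 had the loss in arf6 arf8. The 21 members are 9.21% of these 228, while 174 were below 0.75 in arf6/arf6 ARF8/arf8 in both pairs and 33 in 1 pair. These counts describe the choice and test nothing, and both mutant ratios share the Columbia arrays. In whole flowers, fewer cells of a type and less RNA per cell cannot be told apart.

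**Figure D1:**
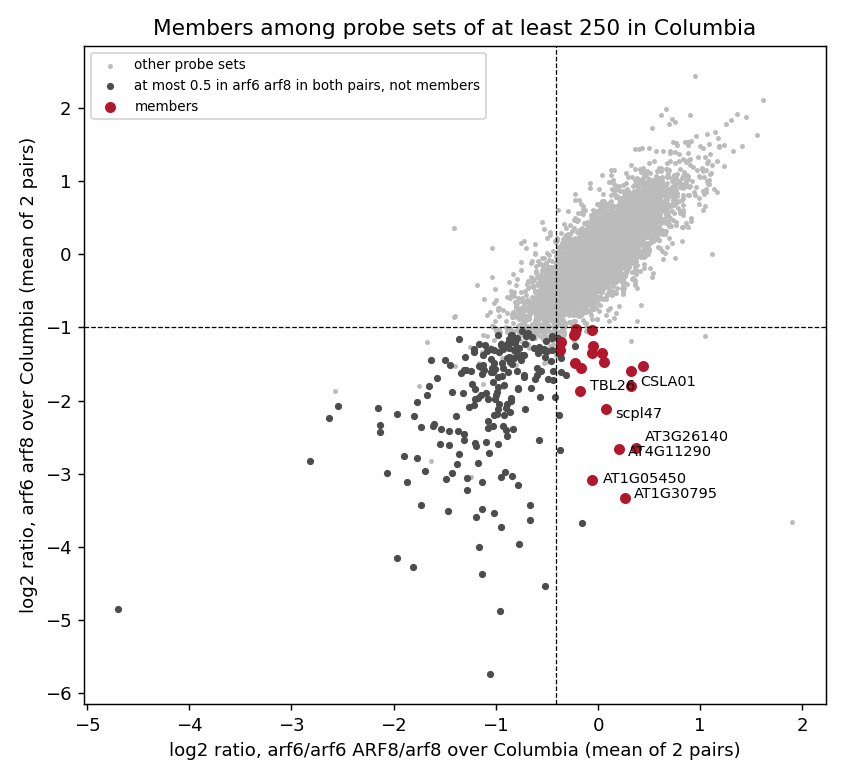
Each point is 1 of the 10440 probe sets of at least 250 in Columbia, with the log2 ratio of arf6/arf6 ARF8/arf8 over Columbia on the x axis and of arf6 arf8 over Columbia on the y axis, each the mean of the IAA and the untreated pair; dashed lines mark ratios of 0.75 and 0.5. The 21 members (red) lie right of most other probe sets lost in arf6 arf8 (dark grey), as the choice requires, and AT1G30795 is the lowest of them on this floored scale.

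The members that act on the plant cell wall include 2 genes of mannan synthesis. CSLA01 encodes a cellulose synthase-like A protein, of the family that makes the backbone of the wall polysaccharide glucomannan. CSLA01 read 262 with IAA and 389.9 untreated in arf6 arf8, 1024 and 1884 in arf6/arf6 ARF8/arf8, and 1015 with IAA, 859 with mock and 1216 untreated in Columbia. The arf6 arf8 arrays were thus the lowest, and the untreated arf6/arf6 ARF8/arf8 array was the highest of all, at 1.55 of untreated Columbia. TBL26 encodes an acetyltransferase of the TRICHOME BIREFRINGENCE-LIKE family, among whose members are enzymes that acetylate mannan. TBL26 read 326 with IAA and 592 untreated in arf6 arf8, 1213 and 1682 in arf6/arf6 ARF8/arf8, and 1478 with IAA, 1354 with mock and 1752 untreated in Columbia. Relative to Columbia in the same treatment, arf6 arf8 was 3.88-fold lower with IAA and 3.12-fold lower untreated for CSLA01, and 4.53-fold and 2.96-fold lower for TBL26.

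A pair of class III peroxidase genes, whose secreted products oxidise wall phenolics and set levels of reactive oxygen, were also among the members. AT4G11290 read 95.2 with IAA and 10.8 untreated in arf6 arf8, 585 and 562 in arf6/arf6 ARF8/arf8, and 513 with IAA, 657 with mock and 480.2 untreated in Columbia. Its untreated arf6 arf8 array lay below the floor, so the loss there was at least 7.39-fold, against 5.39-fold with IAA. AT1G44970, the brightest member, read 639.6 and 862 in arf6 arf8 with IAA and untreated, 2787 and 2835 in arf6/arf6 ARF8/arf8, and 2514, 2216 and 2002 in Columbia with IAA, with mock and untreated. Both arf6/arf6 ARF8/arf8 arrays of AT1G44970 exceeded every Columbia array, and both arf6 arf8 arrays were below all others.

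AT3G26140 encodes a protein of glycosyl hydrolase family 5, which holds enzymes that cut wall polysaccharides. AT3G26140 read 87.2 with IAA and 65.8 untreated in arf6 arf8, 558 and 676 in arf6/arf6 ARF8/arf8, and 536 with IAA, 544 with mock and 422 untreated in Columbia. Its arf6 arf8 levels were just above the floor, 6.15-fold below Columbia with IAA and 6.41-fold untreated. AT1G28710, of a family of nucleotide-diphospho-sugar transferases, read 304 and 284 in arf6 arf8 with IAA and untreated, 655 and 788 in arf6/arf6 ARF8/arf8, and 759.8, 678 and 733 in Columbia with IAA, with mock and untreated. For AT1G28710 the arf6/arf6 ARF8/arf8 values spanned those of Columbia, and arf6 arf8 was 2.54-fold below Columbia on the mean of both pairs.

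A further 3 members encode a glycine-rich protein, a lipid transfer protein and a basic secretory protein. AT1G30795, which encodes a glycine-rich protein, read 16.6 with IAA and 17.9 untreated in arf6 arf8, 927 and 665 in arf6/arf6 ARF8/arf8, and 707 with IAA, 652 with mock and 607 untreated in Columbia. AT1G30795 was the 1 member below the floor on both arf6 arf8 arrays, so its loss was at least 10.9-fold with IAA and 9.34-fold untreated. AT1G05450, a gene of the lipid transfer protein family, whose products carry lipids to the plant surface, read 67.2 and 31.8 in arf6 arf8 with IAA and untreated, 645 and 448 in arf6/arf6 ARF8/arf8, and 624, 713 and 502 in Columbia with IAA, with mock and untreated. AT1G05450 was 9.29-fold lower in arf6 arf8 with IAA and at least 7.73-fold lower untreated, while both arf6/arf6 ARF8/arf8 arrays were within 0.893 to 1.03 of Columbia. AT2G42900, of the plant basic secretory protein family, read 201 and 242 in arf6 arf8 with IAA and untreated, 662 and 612 in arf6/arf6 ARF8/arf8, and 730.4, 617 and 512 in Columbia with IAA, with mock and untreated. The loss of AT2G42900 was 3.64-fold with IAA and 2.12-fold untreated.

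Among the genes of enzymes outside the wall, scpl47 encodes a serine carboxypeptidase-like protein, of a family of peptidases and acyltransferases. It read 130 with IAA and 91.4 untreated in arf6 arf8, 441 and 558 in arf6/arf6 ARF8/arf8, and 486 with IAA, 467 with mock and 454 untreated in Columbia. The 3 Columbia arrays lay close together for scpl47, and arf6 arf8 was 3.74-fold lower with IAA and 4.97-fold lower untreated. AT3G55710, a gene of the UDP-glycosyltransferase superfamily that attaches sugars to small molecules, read 188 and 114 in arf6 arf8 with IAA and untreated, 387 and 323 in arf6/arf6 ARF8/arf8, and 405, 439 and 419 in Columbia with IAA, with mock and untreated. Its untreated arf6/arf6 ARF8/arf8 ratio of 0.771 was the lowest among the named members. The last named member, AT1G11850, is given no role here. It read 516 and 578 in arf6 arf8 with IAA and untreated, and 1887 and 2421 in arf6/arf6 ARF8/arf8. In Columbia it read 1624, 1617 and 1528 with IAA, with mock and untreated. Both arf6/arf6 ARF8/arf8 arrays of AT1G11850 stood above all Columbia arrays, and its mean ratio of 1.36 was the highest of the 21.

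**Figure D2:**
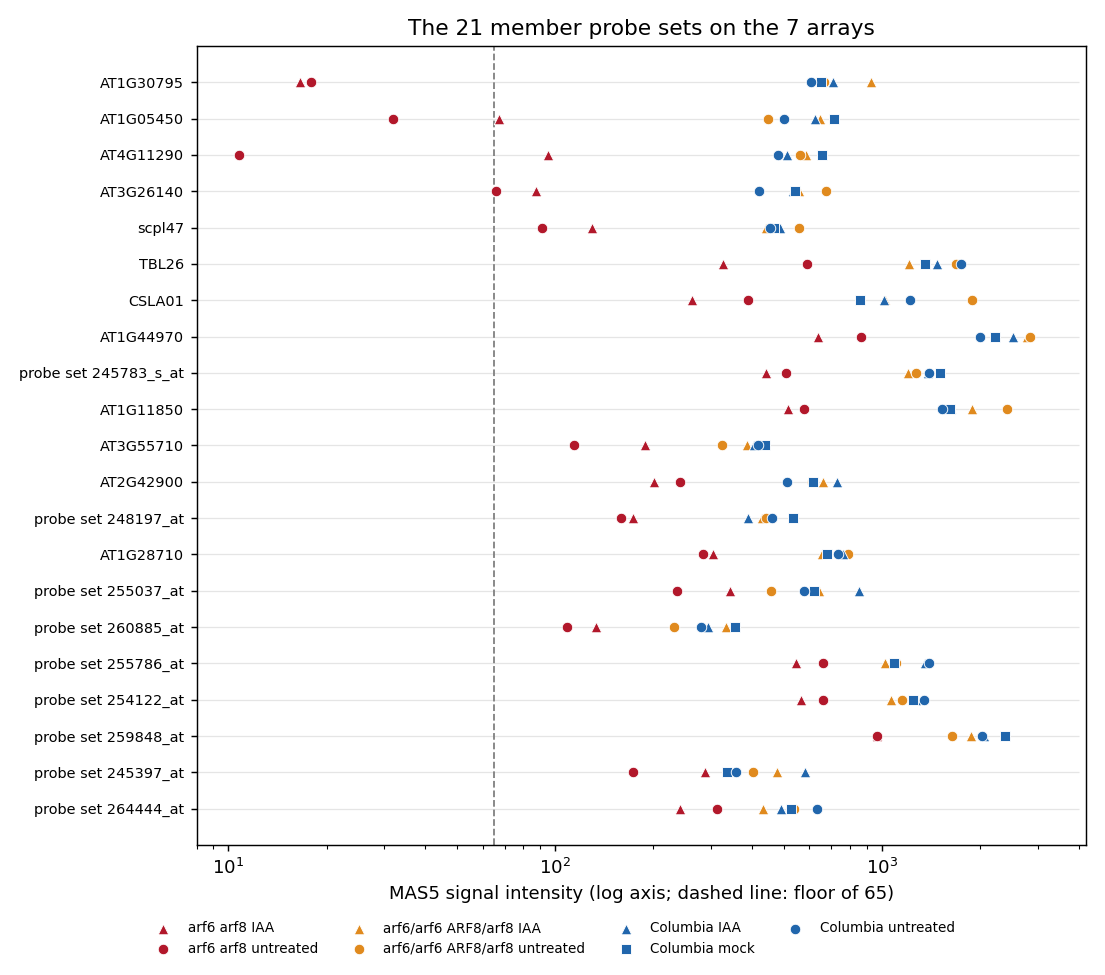
Signal intensity on a log axis for each of the 21 members, 1 point per array, ordered by the floored ratio of arf6 arf8 over Columbia, lowest first; colour gives genotype and shape gives treatment. The arf6 arf8 points lie left of all others in each row, and 3 members have an arf6 arf8 array below the floor of 65.

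Over the 21 members, the mean of both pairs put arf6 arf8 at least 5-fold below Columbia in 4 members, between 2.5-fold and 5-fold below in 10 and under 2.5-fold below in 7. All 4 of the deepest were named genes, AT1G30795, AT1G05450, AT4G11290 and AT3G26140. The 8 members with no gene listed were at 0.393 to 0.492 of Columbia, nearer the limit of 0.5, and the 12 named ones reached up to 0.394. The arf6 arf8 ratio was lower in the IAA pair than in the untreated pair in 13 members and higher in 8. Its median over members was 0.319 for IAA and 0.378 untreated, beside 0.991 and 1.00 over the 10440. In arf6/arf6 ARF8/arf8 both arrays lay within the range of the 3 Columbia arrays in 4 members, above it in 3, below it in 4 and in mixed positions in 10. For these positions, and for which pair had the lower ratio, the share over the 10440 was not taken, so neither count is read as a trait of members. The ratio of arf6/arf6 ARF8/arf8 over Columbia was above 1 in both pairs in 6 members (28.6%), against 35.4% of the 10440. Members were of ordinary brightness: their median Columbia mean was 655, from 309.7 to 2244, and that of the 10440 was 677. The highest Columbia array was a median 1.28 times the lowest in members and 1.20 times over the 10440.

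Values near the limits were as follows. Just inside the limit of 0.5 in arf6 arf8 were 3 members with no gene listed, whose higher ratio was 0.491 to 0.496. The nearest named probe sets outside were AT3G28220 at 0.524, AT4G35110 at 0.529 and AT2G33850 at 0.531. Inside the limit of 0.75 in arf6/arf6 ARF8/arf8 the lowest values were 0.751, 0.759 and 0.771, and outside it the nearest named ones were AT1G12080 at 0.744, GLC at 0.730 and AT1G54020 at 0.719. The dimmest member read 280.2 on its lowest Columbia array, and the nearest named probe set left out for dimness was AT4G27590 at 205.

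Because each pair of arrays came from a different treatment, the choice was repeated on 1 pair and read in the other. The untreated arrays alone chose 53 probe sets. In the IAA arrays 38 of these 53 (71.7%) were at most 0.5 of Columbia in arf6 arf8, against 4.36% of 11134 probe sets. At least 0.75 in arf6/arf6 ARF8/arf8 were 35 (66.0%), a smaller share than the 89.7% of all. Both limits were met by 22 of the 53 (41.5%), against 1.24% of the 11134. The IAA arrays alone chose 138. In the untreated arrays 44 of these 138 (31.9%) were at most 0.5 in arf6 arf8, against 3.16% of 11178 probe sets. At least 0.75 in arf6/arf6 ARF8/arf8 were 106 (76.8%), again a smaller share than the 91.4% of all. Both limits were met by 24 of the 138 (17.4%), against 0.474% of the 11178. Their median ratio of arf6 arf8 over Columbia was 0.446 in the IAA arrays that chose them and 0.618 in the untreated arrays. In either direction most of the choice failed a limit in the pair that did not choose it. By the rule all 21 members are in both choices, so these shares describe the choice and test nothing.

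The Columbia mock array entered the choice through the minimum of 250 alone. Set against it, the arf6 arf8 IAA array was at most 0.5 in 19 of the 21 members (background 4.34%), and the arf6/arf6 ARF8/arf8 IAA array was at least 0.75 in 21 (background 88.1%). Both mutant arrays had already served in the choice, so these counts are not independent of it. The members outside 0.5, 255037_at and 245397_at, have no gene listed and are singled out after their values were seen. 245397_at read 289 in arf6 arf8 with IAA against 336 in Columbia with mock and 581 in Columbia with IAA, and 255037_at read 344 against 619 and 854. Both had a higher Columbia IAA than mock array, by 1.73-fold and 1.38-fold.

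IAA against untreated and mock against untreated were not used in the choice and were fitted over the whole table. Mutant flowers have no mock array here, so IAA against untreated includes the spray itself. With limma, 0 of 21 members passed an adjusted p of 0.05 for IAA, where 141 of 13021 probe sets did (1.08%), and 5 of 21 had an unadjusted p under 0.05 (background 15.9%). For the mock spray 0 of 21 passed, against 0.753% of all, and 3 had an unadjusted p under 0.05 (background 17%). A like genotype ratio in both pairs is required of members, which can narrow their residual spread, and with no repeat arrays these p-values rest on additive effects.

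CSLA01 and TBL26 had the lowest fitted values with IAA. Rises of like size were fitted for 245397_at (log2 0.56) and 255037_at (log2 0.53), which have no gene listed. For CSLA01 the fitted log2 difference was -0.57 ± 0.14 (SE) with IAA (limma, adjusted p = 0.134) and -0.66 ± 0.22 with mock (adjusted p = 0.21). For TBL26 it was -0.53 ± 0.14 with IAA (limma, adjusted p = 0.152) and -0.51 ± 0.23 with mock (adjusted p = 0.315). Both genes were lower with IAA than untreated in all 3 genotypes. The log2 ratio of CSLA01 was -0.58 in arf6 arf8, -0.88 in arf6/arf6 ARF8/arf8 and -0.26 in Columbia. That of TBL26 was -0.86, -0.47 and -0.25 in the same order. In Columbia the mock array was lower than the IAA array for each. The measured log2 ratio of mock over untreated there was -0.50 for CSLA01 and -0.37 for TBL26. These are smaller falls than the fitted mock values, which also draw on the mutant arrays. CSLA01 passed the threshold for IAA with an intensity trend (limma, adjusted p = 0.0447) and without the Columbia IAA array (adjusted p = 0.0485), and over all alternatives its adjusted p ran up to 0.65.

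The other named members had fitted IAA values between -0.15 and 0.31. After flooring at the 10th percentile instead, AT4G11290 had 0.94 in place of 0.23 and AT1G05450 0.64 in place of 0.29 (limma, adjusted p = 0.402 and 0.149). AT3G55710, at 0.31 ± 0.16 (limma, adjusted p = 0.397), had log2 ratios of 0.72 in arf6 arf8, 0.26 in arf6/arf6 ARF8/arf8 and -0.05 in Columbia. AT2G42900 had them in another order, at -0.27, 0.11 and 0.51. Whether the response to IAA differs between genotypes was not tested for single members. Over the 21 members the median ratio of IAA over untreated was 1.00 in arf6 arf8, 0.971 in arf6/arf6 ARF8/arf8 and 1.05 in Columbia, beside 0.982, 0.994 and 0.993 over the 10440. With IAA 5 members were higher and 6 lower in all 3 genotypes, against 18.9% and 22.5% of the 10440. At least 1.5-fold higher with IAA were 2 members in arf6 arf8 (background 3.85%), 0 in arf6/arf6 ARF8/arf8 (2.25%) and 1 in Columbia (1.91%), and at least 1.5-fold lower were 1 (6.45%), 1 (1.89%) and 0 (1.32%). With mock 0 of 21 members moved by 1.5-fold in either direction, where 3.06% of the 10440 were higher and 2.39% lower.

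**Figure D3:**
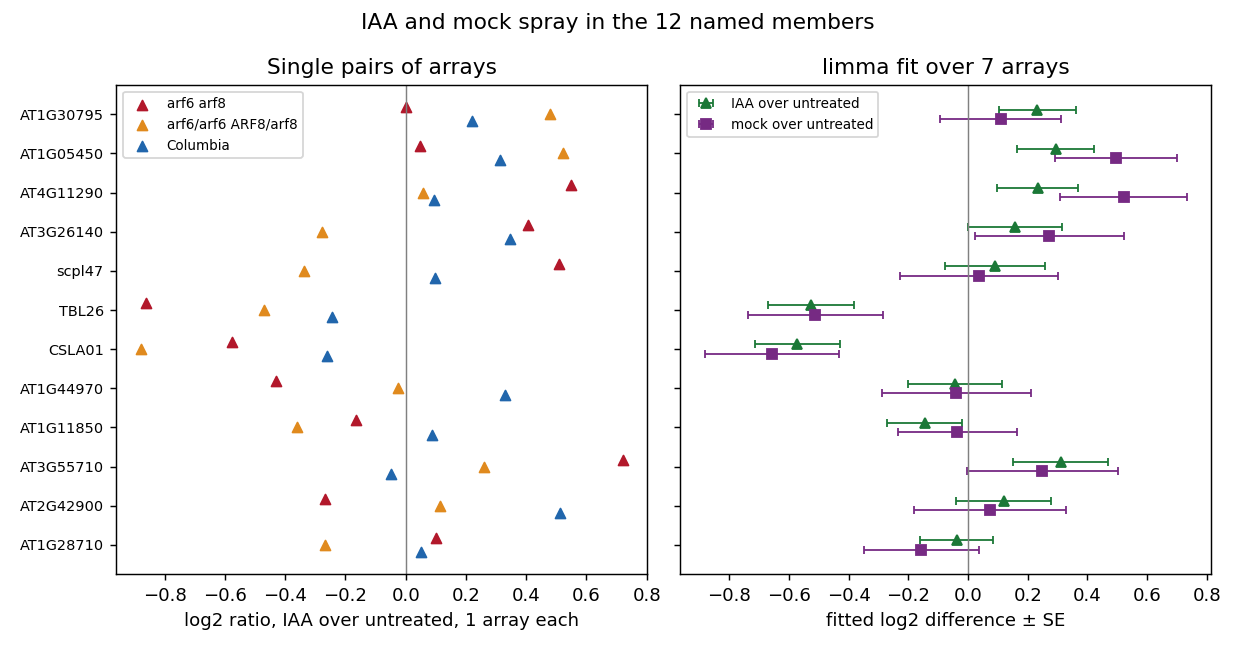
Left, the log2 ratio of IAA over untreated for the 12 named members in each genotype, 1 pair of arrays a point; right, the limma estimates for IAA and for mock over untreated with bars of 1 SE. CSLA01 and TBL26 lie below 0 in all 3 genotypes and for both sprays, and no estimate passed the adjusted threshold.

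Relatives of 3 named members were taken from their symbols, a choice made after the members were known. Of the TBL family 22 named probe sets were on the array and 11 reached the Columbia minimum. TBL26 was the 1 of these 11 at most 0.5 of Columbia in arf6 arf8 in both pairs. TBL23 and TBL25, close relatives of TBL26, had mean ratios of 0.930 and 0.851, and the rest ran from 0.537 for TBL45 to 1.83 for TBL38. Of the serine carboxypeptidase-like family 29 named probe sets were present and 16 reached the minimum, with a median ratio of 1.05. Beside scpl47, SCPL43 was below 0.5 in both pairs: it read 379 and 312 in arf6 arf8 with IAA and untreated, 697 and 949 in arf6/arf6 ARF8/arf8, and 1069, 980.0 and 1020 in Columbia with IAA, with mock and untreated. SCPL43 is no member because its arf6/arf6 ARF8/arf8 ratio with IAA was 0.652. CSLA03, the other named CSLA gene, read 109 and 113 in arf6 arf8 with IAA and untreated, and 220.0 and 154 in arf6/arf6 ARF8/arf8. In Columbia it read 233, 214 and 271 with IAA, with mock and untreated, below the minimum on some arrays. The arf6 arf8 ratio of CSLA03 was also below 0.5, at 0.470 with IAA and 0.418 untreated. Its arf6/arf6 ARF8/arf8 ratio was 0.944 with IAA and 0.568 untreated, the latter below 0.75.

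**Figure D4:**
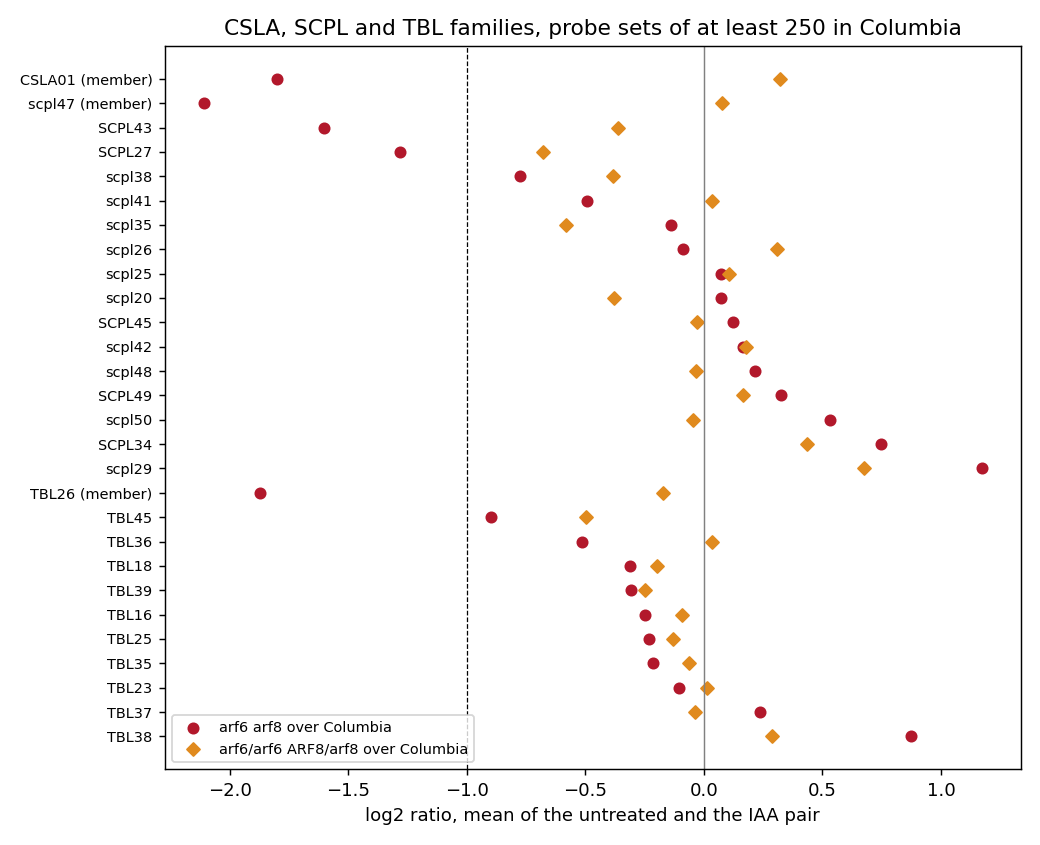
Log2 ratios over Columbia, mean of the IAA and the untreated pair, for the CSLA, serine carboxypeptidase-like (scpl) and TBL probe sets of at least 250 in Columbia; red points are arf6 arf8 and orange points arf6/arf6 ARF8/arf8. The members CSLA01, the 1 CSLA probe set plotted, scpl47 and TBL26 were chosen for a low red point and a kept orange point; most other SCPL and TBL red points lie right of the dashed line at a ratio of 0.5.

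Genes next to members in the genome were also read. None of the 12 named members lies directly beside another of them, and the other 9 members were not placed. Of 24 flanking protein-coding genes 12 had a named probe set and 4 reached the Columbia minimum, among them GT72B1 beside TBL26 at 1.57 of Columbia in arf6 arf8. The other 3 ranged from 0.914 to 1.20, so 0 of 4 were at most 0.5 (background 2.24%).

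None of the 12 named members belongs to the lists of related pathways and cell types that were drawn up, of which few genes have a named probe set; the other 9 members could not be matched. In jasmonate synthesis 3 of 19 genes were named and 2 reached the minimum, with 0 at most 0.5 in arf6 arf8 in both pairs; OPCL1, which activates a jasmonate precursor, had mean ratios of 0.656 in arf6 arf8 and 0.739 in arf6/arf6 ARF8/arf8. For early auxin response 15 of 44 were named, 5 reached the minimum and 0 were at most 0.5 in both pairs. GH3.17, which encodes an enzyme that conjugates IAA, had mean ratios of 0.453 in arf6 arf8 and 0.779 in arf6/arf6 ARF8/arf8, and HAT2 and GH3.3 were the 2 of these 5 that rose with IAA (limma, adjusted p = 0.0111 and 0.0214). In the cuticle list 1 of 31 was named, the wax ester synthase gene WSD1, at 0.406 in arf6 arf8 and 0.693 in arf6/arf6 ARF8/arf8. The stamen MYB factors, the auxin response factors and the green tissue markers had 0 named probe sets. Of floral organ identity 2 of 17 were named, and the carpel gene SPT read between 395 and 801 on the 7 arrays while UFO, a gene of early flower buds, read at most 42.2.

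Markers of some cell types differed between the genotypes, while others overlapped between them. The 7 named pollen markers of 21 summed to 2123 and 2145 on the arf6 arf8 arrays, 2444 and 2625 on the arf6/arf6 ARF8/arf8 arrays and 3151 to 3953 on the Columbia arrays. For the nectary, 2 of 6 summed to 106.5 and 185 in arf6 arf8, 471 and 759.7 in arf6/arf6 ARF8/arf8 and 1570 to 1960 in Columbia, chiefly from SWEET9. The 1 tapetum marker of 16, AMS, read 321 and 388 in arf6 arf8, 292 and 375 in arf6/arf6 ARF8/arf8 and 124 to 217 in Columbia. The volatile synthesis marker CYP71B31, 1 of 5, read 1.4 and 22.1 in arf6 arf8, 5.8 and 82.8 in arf6/arf6 ARF8/arf8 and 89.7 to 301 in Columbia. The dividing-cell markers AUR1 and AUR2, 2 of 9, summed to 1022 and 1075 in arf6 arf8, 1238 and 1303 in arf6/arf6 ARF8/arf8 and 1073 to 1365 in Columbia. Whether a marker or its cell type was present cannot be read from these intensities, since detection calls were not used. CYP71B31 lay below the floor for dim signal on both arf6 arf8 arrays and on the arf6/arf6 ARF8/arf8 IAA array. The part of these named markers in the members' values was not tested. The pollen and nectary sums were lower in arf6/arf6 ARF8/arf8 than in Columbia as well, as was CYP71B31, which is dim. Members were chosen for a kept signal there, so any difference from these sums was set by the choice. Single markers did not all follow these sums. The pollen marker AGL66 had a mean ratio of 1.01 in arf6/arf6 ARF8/arf8 and AGL104 of 1.33 in arf6 arf8. The nectary marker JMT was mixed: it read 241 in untreated arf6/arf6 ARF8/arf8 against 178 in untreated Columbia. With IAA it read 61.3, below the floor, against 109.8 in Columbia. Its mean ratio over both pairs in arf6/arf6 ARF8/arf8 was 0.895.

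The 21 members had a median ratio over Columbia of 0.356 in arf6 arf8 and 0.963 in arf6/arf6 ARF8/arf8, beside 0.196 and 0.372 for the 62 transcripts at most 0.5 of Columbia in both mutants. The median Columbia mean was 655 for members and 992 for those 62. The median ratio of IAA over untreated in Columbia was 1.05 for members and 1.06 for the 62. The difference in the arf6/arf6 ARF8/arf8 ratio was fixed by the limits that chose each set. The other differences between the sets were not tested.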

How the data were processed

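Total RNA from flowers was hybridised to 7 arrays. The authors deposited linear intensity values, made with MAS5 per the submitters' processing notes. The 2% trimmed mean of the deposited intensity was 500 on every array, so no further scaling was applied. Scaling factors and detection calls were not used here. Names came from a platform annotation of 2016, updated through RefSeq TAIR10.1 by gene ID (13436 of 13513 single-gene probe sets matched). That table holds no gene descriptions, so the planned classes by description were not formed, and roles are textbook knowledge. Promoter sequences were not used here.

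For the choice of members, values were floored at 65. For the fit, control probe sets were left out, values were floored at the 25th percentile (65.2), taken to log2 and kept where the highest array exceeded the 50th percentile (248.1). limma 3.58.1 in R 4.3.3 fitted genotype and treatment as additive terms (lmFit, eBayes; 2 residual degrees of freedom), with two-sided p-values adjusted by Benjamini-Hochberg over 13021 probe sets at 0.05. Every single-gene member is named; other genes are named for nearness to a limit, shared family, place in the genome or a list. The number of arrays limits the precision. Members, lists and limits were chosen with earlier results of these data known.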

Additional observations from a re-analysis of the deposited data

How the results depend on the processing

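The rule chose 21 probe sets with a floor of 30 or 130, 20 after quantile normalization and 23 after scaling to a common median, with 20 and 19 of the 21 among them; all 12 named members were in each of these. It chose 27 with a Columbia minimum of 150 and 13 with 500, 9 with a limit of 0.4 in arf6 arf8 and 44 with 0.6, 33 with a limit of 0.67 in arf6/arf6 ARF8/arf8 and 12 with 0.85, and 53 or 138 from the untreated or the IAA arrays alone. The IAA call count was 52 after flooring at the 40th percentile, 0 without the filter, where probe sets at the floor on all arrays were left out (2503 at an unadjusted p under 0.05 in limma), 236 after filtering at the 70th percentile, 380 when the variance followed intensity as a trend, and 2 when untreated and mock formed one control. Leaving out 1 array gave 0 to 337 IAA calls: 0 without either arf6 arf8 array (1646 and 1637 at an unadjusted p under 0.05), 275 without Columbia untreated and 337 without Columbia IAA. The mock call count was 32 and 0 after flooring at the 10th and the 40th percentile (2141 at an unadjusted p under 0.05), 0 without the filter (4213 at an unadjusted p under 0.05), 4 after filtering at the 70th percentile and 30 with the trend. Leaving out 1 array gave 0 to 242 mock calls: 0 without either arf6 arf8 array, 214 without Columbia IAA, 242 without Columbia untreated, 238 without arf6/arf6 ARF8/arf8 untreated and 219 without its IAA array. The causes were not tested. Of the members not past the threshold, the fitted log2 sign turned for scpl47 with IAA (-0.080 after flooring at the 40th percentile). It also turned for some mock values near 0: scpl47 (-0.048 with that floor), and AT1G44970 and AT1G11850 (0.0061 and 0.025 after quantile normalization). With 1 array left out the fitted log2 values ran from -0.12 to 0.30 for scpl47 with IAA, from -0.23 to 0.15 for AT1G44970 with IAA and -0.41 to 0.15 with mock, and from -0.078 to 0.31 for AT2G42900 with IAA and -0.32 to 0.27 with mock. Smaller values turned sign too, such as AT1G28710 with IAA, from -0.037 to 0.077 without the untreated arf6/arf6 ARF8/arf8 array. The counts against the mock array stayed at 19 and 21 under each floor and scaling. Medians over members moved by less than 0.148, the median residual SD of the fit as moderated by eBayes. No paired analysis was possible because every group holds 1 array, so no replicate number pairs samples; genotype is already a term of the fit. With a floor at the 10th percentile AT4G11290 had a fitted log2 of 0.88 with mock, against 0.52. The promoter motif shares were not run, since no promoter sequence was given.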
